A study of Mus musculus with 16 samples.

Results

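The genes of the proteasome were compared between microglia, the macrophages that live in the retina, of mouse pups with oxygen-induced retinopathy (OIR) and of pups without it (nonOIR). Members were the genes whose symbol begins with Psma, Psmb, Psmc, Psmd, Psme, Psmf or Psmg followed by a digit, without a -ps ending. They also had to reach at least 1 CPM (reads of the gene scaled for sequencing depth, for this rule by the unscaled library total) in at least 8 of the 16 libraries. Such a symbol was carried by 50 of the 54532 genes listed, and 49 met the level. The exception was Psmb11, the catalytic subunit of the thymus proteasome, at a mean of 0.00926 CPM in nonOIR and 0 in OIR. Another 4 symbols with the -ps ending were left out, the highest of them Psmb6-ps2 at a mean of 0.135 CPM in OIR. Psmc3ip, a recombination factor and not a subunit of the proteasome, also met the rule. It reached the minimum in 14 libraries, with means of 1.95 CPM in nonOIR and 3.50 CPM in OIR. The other 48 members reached the minimum in all 16 libraries. All 49 also passed the filter on low counts that left 12496 genes for testing.

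There were 8 OIR and 8 nonOIR libraries, all from Cx3cr1CreERT2:Rosa26-tdTomato pups at postnatal day 17, and all pups had received tamoxifen (5 µl at 21 mg/ml) at postnatal day 1. In the OIR model, pups spend some days in high oxygen, which stops vessel growth, and back in room air the retina becomes short of oxygen and forms abnormal vessels. The Cre is driven by the Cx3cr1 promoter, which is active in microglia and also in other macrophages and monocytes, and cells were sorted as tdTomato+ CD11b+ CD45low without Ly6C or Ly6G. Whether each library stands for its own animal is not stated in the labels, so p-values here reflect only how far these samples spread, and that spread may be technical in part. In each group 5 libraries carried the lane code L001 (lane 1) and 3 the code L002 (lane 2), and the labels do not say what else differed between these lanes.

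The proteasome is the large protease that degrades ubiquitin-tagged proteins. Its 20S core is a barrel of alpha rings around beta rings, in which Psmb5, Psmb6 and Psmb7 encode the catalytic subunits of standard particles, and the 19S cap recognises, unfolds and feeds in the substrate. In immune cells, and in other cells after interferon gamma, Psmb8, Psmb9 and Psmb10 encode replacement catalytic subunits that form the immunoproteasome, while Psme1 and Psme2 encode the PA28 activator ring. These 5 genes are called immune subunits here. The immunoproteasome is best known for supplying peptides to class I antigen presentation, and microglia carry much of it compared with other cells of the nervous system.

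Library totals ran from 13591651 to 30001463 counts. The 7 microglial markers (among them Cx3cr1 and P2ry12) summed to 44203 to 55084 CPM in nonOIR and 25544 to 41144 CPM in OIR, with 3 of 7 lower in OIR. Here and below CPM is the count relative to the library size after scaling by the trimmed mean of M values (TMM). Of other cell types, T and NK cell markers stood at no more than 0.0448 CPM and neutrophil markers at no more than 1.04 CPM in sum, with Ly6g, Elane and Ngp at 0 in all libraries. Monocyte markers summed to 6.82 to 15.0 CPM in nonOIR and 18.8 to 61.5 CPM in OIR, with Ly6c2 at 0 and 1 of 4 tested higher. Genes of dividing cells summed to 19.6 to 47.6 CPM in nonOIR and 57.0 to 340.3 CPM in OIR, with 5 of 6 higher in OIR. Erythrocyte markers summed to 0 to 28.6 CPM in nonOIR and 1.87 to 292 CPM in OIR, with both tested genes of 5 higher in OIR. Rod markers (61.0 to 478 CPM in nonOIR, 37.9 to 387 CPM in OIR) and endothelial markers (21.1 to 42.1 and 8.59 to 37.6 CPM) overlapped, with 0 of 6 and 0 of 3 passing. The part of these shifts in the results below was not tested.

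Across the proteasome, most members stood slightly higher in OIR, few passed the test, and no member passed as lower. By edgeR's quasi-likelihood test, with p-values adjusted after Benjamini-Hochberg over all genes tested and a threshold of 0.05, 7 of 49 members (14.3%) were higher in OIR, where 6.39% of all tested genes were. None was lower, where 4.56% of all tested genes were. At an unadjusted p under 0.05 there were 20 higher and 0 lower members. The share of all tested genes at that cut was not counted. DESeq2 called 13 members higher, where 8.7% of all tested genes were, and 0 lower, where 6.25% were. With limma-voom 6 members were higher and 0 lower, where 5.67% and 4.66% of all tested genes were. The 7 were Psmg4, Psmd8, Psmc5, Psme1, Psme2, Psmb2 and Psme3, and all 7 were also among the 13 members that the authors' deposited table gives as higher at its own adjusted p-value under 0.05. That table gives 0 members as lower. Upper-quartile scaling left only Psmg4, Psmd8 and Psmc5 of the 7, the run without a low-count filter lost Psme1, Psmb2 and Psme3, and limma-voom lost Psmb2 and Psme3. RNA of bulk samples was measured, so more cells with a transcript and more RNA per cell cannot be told apart.

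The size of the shift was small and spread over the list. The log2 fold change (OIR over nonOIR) was above 0 in 42 of 49 members (85.7%) and in 46.5% of all tested genes, and its median was 0.21 over the members and -0.03 over all tested genes. With library size alone the members' median was 0.28, with upper-quartile scaling 0.18 and with RLE scaling 0.22, so the sign held under each scaling run. For 19 of 49 members (38.8%) all 8 OIR libraries lay above the nonOIR median, against 9.01% of all tested genes. Summed over the members, CPM ran from 4297 to 5465 in nonOIR (mean 4755 ± 414, SD, n = 8) and from 4890 to 6503 in OIR (5538 ± 592, SD, n = 8), so the groups overlapped. In single OIR libraries 28 to 46 members lay above the mean of the nonOIR libraries, and in single nonOIR libraries 14 to 41 did.

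**Figure D1:**
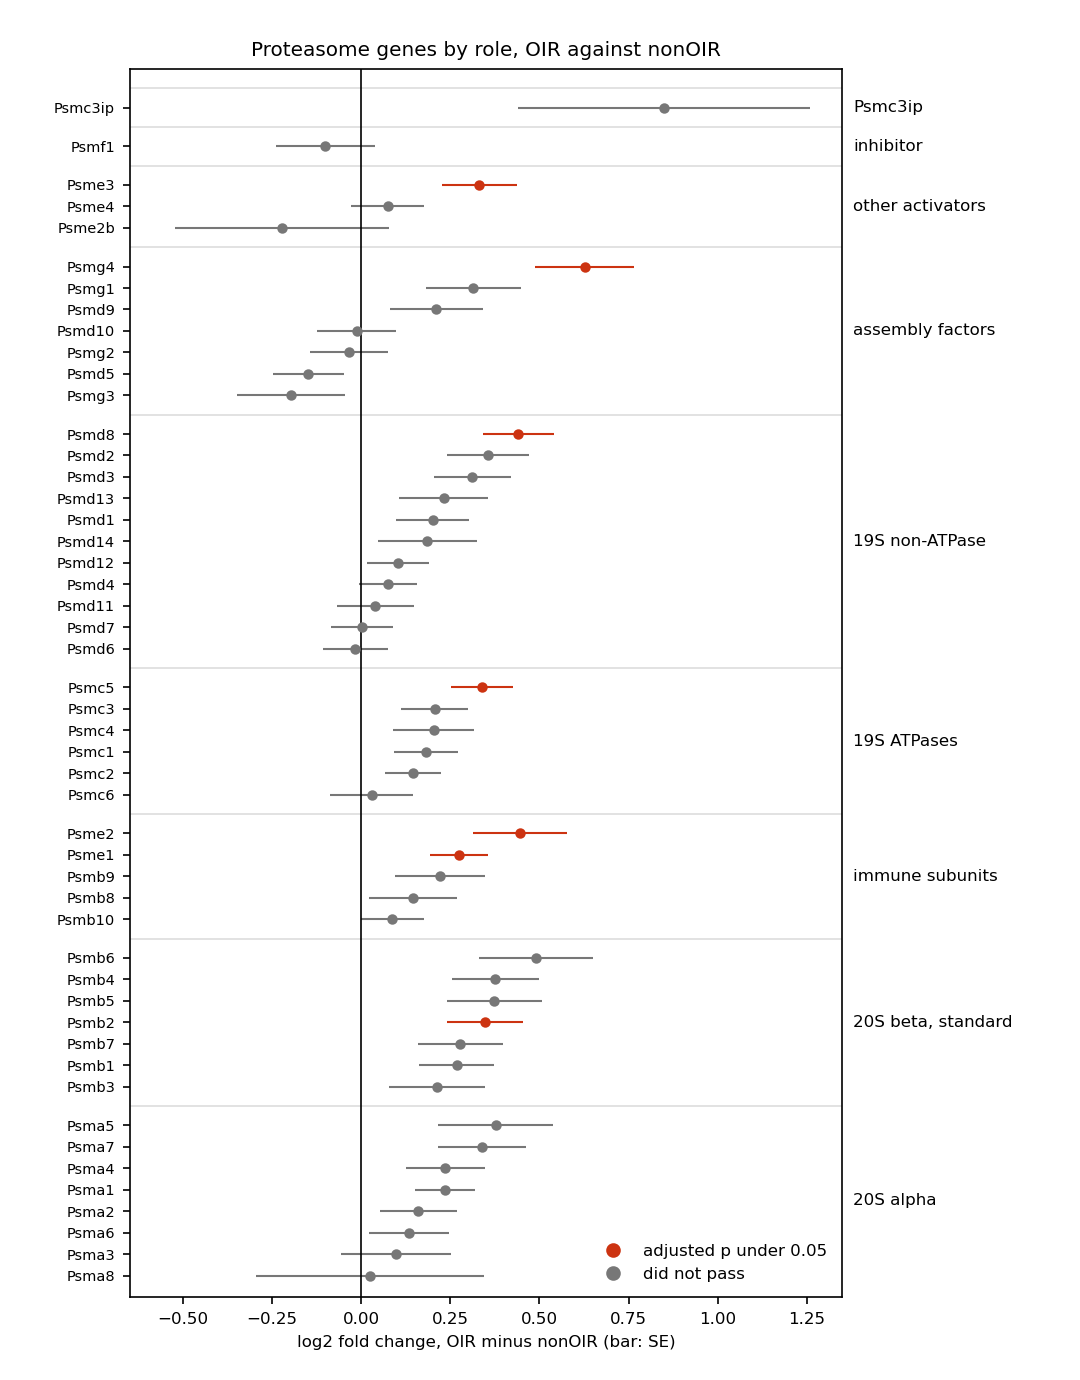
Log2 fold change of OIR over nonOIR with its standard error for each of the 49 members, grouped by role. Points to the right of 0 are higher in OIR, and the 7 coloured points passed the threshold of 0.05. All members of the 20S core and of the immune group lie to the right of 0, while the assembly factors fall on either side.

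Levels between genes were compared per kilobase of exon. In nonOIR the highest were Psma6, Psmb2 and Psma1, subunits of the core, at 149, 142 and 95.6 CPM per kb, and Psmc5 was the highest 19S ATPase at 90.1 CPM per kb. Among the immune subunits Psme1 was highest at 67.8 CPM per kb, Psmb10 stood at 57.0, Psmb8 at 50.9, Psme2 at 41.4 and Psmb9 lowest at 15.9. The standard catalytic partners stood at 25.9 (Psmb5), 85.0 (Psmb6) and 14.9 CPM per kb (Psmb7). By this measure Psmb8 and Psmb10 were above their partners in nonOIR microglia and Psmb9 below its own. The order is uncertain, since Psmb5 shares 54.1% of its 50-base stretches with other transcripts and may be undercounted. The length used is also that of all annotated exons, 899 bases in Psmb5 and 3381 in Psmb8, whichever transcripts the cells make. The lowest true subunit was Psma8, the alpha subunit typical of testis, at 2.65 CPM per kb in OIR, and the lowest of the other roles in nonOIR were Psmd11 at 12.2, Psmc6 at 28.5, Psmb3 at 14.9, the assembly factor Psmd9 at 4.16 and the activator Psme4 at 4.13. Psmd10 at 31.4 CPM per kb led the assembly factors, Psmd8 at 52.0 the other 19S genes and Psme3 at 35.6 the other activators.

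**Figure D2:**
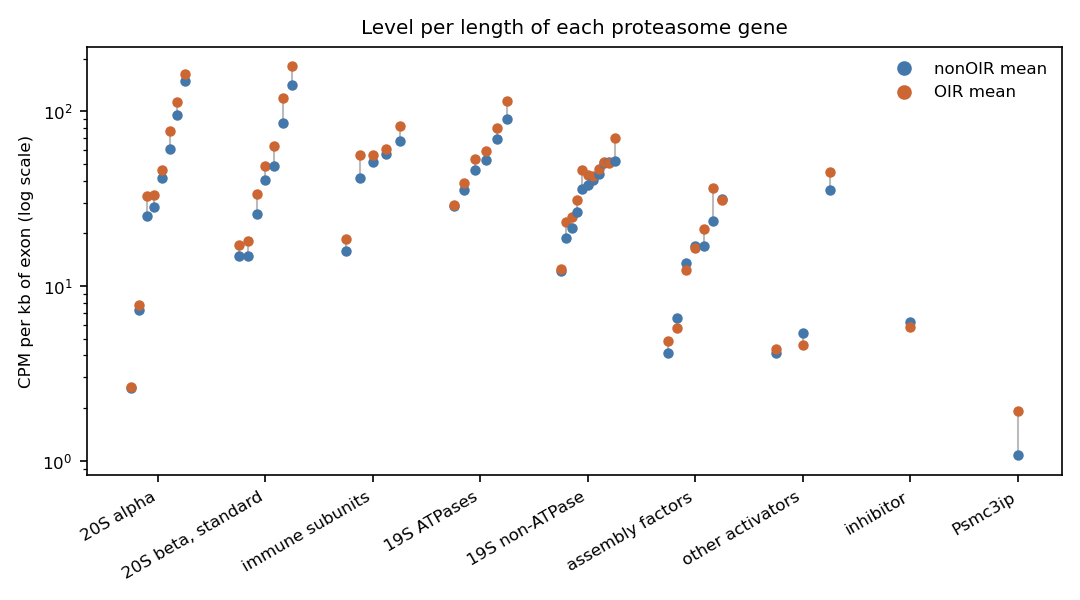
Mean level of each member in CPM per kb of exon on a log axis, ordered within each role, with nonOIR and OIR means of 8 libraries joined by a line. Core and cap subunits mostly lie between 10 and 180.3 CPM per kb, and the immune subunits sit among them rather than below them.

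Of the 5 immune subunits, the PA28 genes Psme1 and Psme2 were higher in OIR and the catalytic genes Psmb8, Psmb9 and Psmb10 did not pass the test. The median log2 fold change over the 5 was 0.22, beside 0.20 over the 44 other members, of which 5 passed as higher. With so few genes these counts are a description.

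Psme1, the alpha chain of PA28, ran from 128 to 170 CPM in nonOIR (median 151) and from 162 to 227 CPM in OIR (median 177). All 8 OIR libraries lay above the nonOIR median, and the ranges met only at their edges. Its mean rose from 150 ± 13.3 to 181 ± 20.4 CPM (SD, n = 8), or by 0.27 ± 0.08 (SE) on the log2 scale (edgeR adjusted p = 0.035). OIR replicate 3 was the highest library, and without it the call was lost, as it was without OIR replicate 6 or any of nonOIR replicates 2, 3, 4, 7 and 8 (edgeR adjusted p up to 0.0689).

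Psme2, the beta chain of PA28, ran from 56.4 to 97.2 CPM in nonOIR (median 69.8) and from 78.6 to 128 CPM in OIR (median 95.2). Here too every OIR library exceeded the nonOIR median, while nonOIR replicates 6 and 8, both of lane 2, reached into the OIR range. The mean rose from 73.0 ± 14.8 to 99.5 ± 18.3 CPM (SD, n = 8), or by 0.45 ± 0.13 (SE) on the log2 scale (edgeR adjusted p = 0.0355). The call was lost without OIR replicate 6 or 8 or any of nonOIR replicates 1, 2, 3, 4, 5 and 7 (edgeR adjusted p up to 0.0693). Psme2 shares 28.3% of its 50-base stretches with other transcripts, chiefly the single-exon copy Psme2b, so part of its reads may have been dropped or split in counting.

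Psmb8, which replaces Psmb5, ran from 144 to 235 CPM in nonOIR (median 159) and from 145 to 246 CPM in OIR (median 186). The ranges overlapped almost fully, although 7 of 8 OIR libraries lay above the nonOIR median. Means were 172 ± 33.4 and 191 ± 34.5 CPM (SD, n = 8). On the log2 scale the difference was 0.15, with a 95% interval of -0.10 to 0.39 (edgeR adjusted p = 0.515). Within each group the lane 2 libraries were higher on average, at means of 204 CPM in nonOIR and 224 CPM in OIR against 153 and 170 CPM in lane 1.

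Psmb9, which replaces Psmb6, ran from 46.9 to 79.5 CPM in nonOIR (median 52.1) and from 57.5 to 81.9 CPM in OIR (median 65.7). All OIR libraries lay above the nonOIR median, but nonOIR replicates 6 and 8, both of lane 2, were nearly as high as the highest OIR libraries. On the log2 scale OIR exceeded nonOIR by 0.22, with a 95% interval of -0.03 to 0.47 (edgeR adjusted p = 0.297). Its exons overlap those of Tap1 on the opposite strand over 212 bases, and with a kit blind to strand the reads of that stretch cannot be told apart. The same limit holds for Psmb8 over 498 bases (Gm20496) and for Psmb7 over 405 bases (Nek6).

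Psmb10, which replaces Psmb7, stood at 82.8 to 113 CPM in nonOIR (median 94.5) and 88.6 to 118 CPM in OIR (median 105). The 2 groups covered nearly the same range. This amounts to a log2 fold change of 0.09, with a 95% interval of -0.09 to 0.26 (edgeR adjusted p = 0.602).

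**Figure D3:**
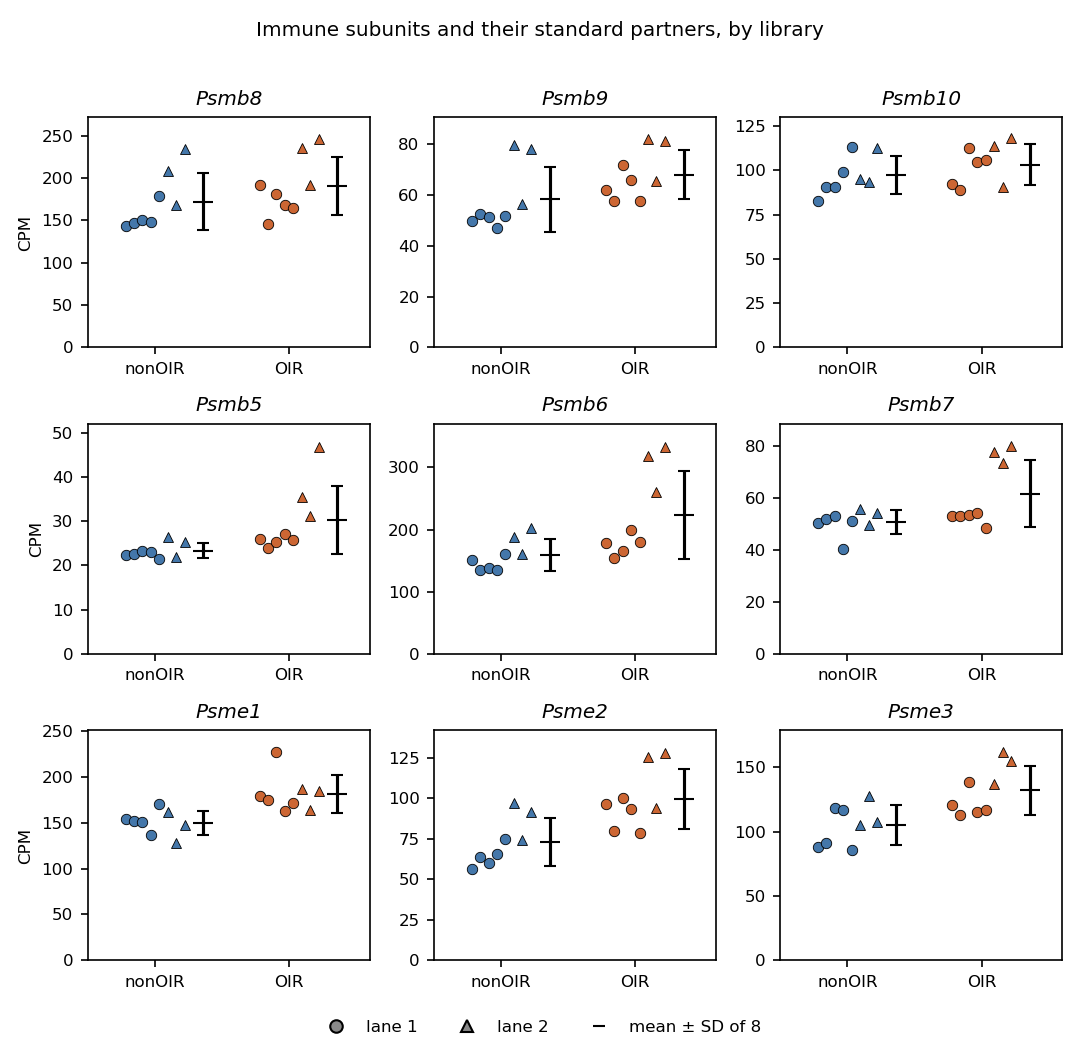
CPM in every library for the immune subunits Psmb8, Psmb9, Psmb10, Psme1 and Psme2 and for Psmb5, Psmb6, Psmb7 and Psme3, with circles for lane 1, triangles for lane 2 and the mean ± SD of 8 libraries beside each group. In Psmb5, Psmb6 and Psmb7 the 3 OIR libraries of lane 2 stand above all others, while in Psmb8 and Psmb9 the lane 2 libraries of both groups are high on average.

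Promoter sequences were examined because immune and standard members had log2 fold changes of the same sign. RefSeq windows (GRCm38.p6, 250 bases before to 50 after the start) were found for 41 of the 49 members, in 44 windows. Windows were missing for Psma8, Psmb1, Psmb2, Psmb7, Psmc3, Psmd3, Psmd7 and Psmg2. Motifs were searched on both strands: GAAANNGAAA, the core of the interferon-stimulated response element, TTCNNNGAA, the gamma-activated site, TGACNNNGC, the antioxidant response element, and CCAAT. The first was found in 5 member windows (11.4%, Psmb3, Psmd4, Psmd9, Psme1 and Psmg4) and in 3.44% of 32851 windows of the same length. The second was found in 3 (6.82%, Psmb8, Psmd2 and Psmg1) against 8.30% of all windows. TGACNNNGC was found in 6 (13.6%) against 12.4%, and CCAAT in 14 (31.8%) against 37.4%. A match is a description of letters and not a bound site. Of the 5 members with the first motif, Psme1 and Psmg4 were higher in OIR, and Psmb3, Psmd4 and Psmd9 did not pass. The 4 windows below show the matches in Psme1 and Psmg4, and in Psmb8 and its standard partner Psmb5, neither of which passed. Each is written along its gene's strand, 5′ to 3′, with the matching letters in capitals, and each holds 1 match in all. Psme1 lies at chr14:55578244-55578543 (+ strand) and its capitals match the first motif on the reverse strand, Psmg4 at chr13:34162714-34163013 (+) with the first motif on the forward strand, Psmb8 at chr17:34197945-34198244 (+) with the second, and Psmb5 at chr14:54617946-54618245 (-) with TGACNNNGC.
Psme1: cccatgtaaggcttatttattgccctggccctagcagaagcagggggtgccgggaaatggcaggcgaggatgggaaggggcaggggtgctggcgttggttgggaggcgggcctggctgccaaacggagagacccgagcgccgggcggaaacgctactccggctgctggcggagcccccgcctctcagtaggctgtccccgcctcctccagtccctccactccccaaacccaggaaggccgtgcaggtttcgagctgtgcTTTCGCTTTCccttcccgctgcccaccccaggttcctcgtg
Psmg4: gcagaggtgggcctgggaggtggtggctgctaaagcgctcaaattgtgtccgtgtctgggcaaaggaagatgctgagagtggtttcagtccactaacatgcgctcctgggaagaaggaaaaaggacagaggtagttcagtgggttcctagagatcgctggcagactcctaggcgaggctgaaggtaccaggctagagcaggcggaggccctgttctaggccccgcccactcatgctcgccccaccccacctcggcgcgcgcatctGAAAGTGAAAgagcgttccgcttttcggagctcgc
Psmb8: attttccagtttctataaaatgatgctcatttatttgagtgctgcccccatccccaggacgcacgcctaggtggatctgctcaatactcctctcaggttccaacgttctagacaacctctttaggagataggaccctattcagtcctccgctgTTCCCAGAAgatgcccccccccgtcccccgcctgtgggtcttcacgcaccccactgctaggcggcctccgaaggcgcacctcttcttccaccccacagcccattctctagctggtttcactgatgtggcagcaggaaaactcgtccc
Psmb5: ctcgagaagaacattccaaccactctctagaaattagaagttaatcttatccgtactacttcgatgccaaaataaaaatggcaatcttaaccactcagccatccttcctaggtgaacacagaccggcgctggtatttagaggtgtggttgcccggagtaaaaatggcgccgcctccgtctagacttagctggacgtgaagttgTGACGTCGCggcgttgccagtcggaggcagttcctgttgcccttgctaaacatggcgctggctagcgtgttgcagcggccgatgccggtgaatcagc
In Psme1 the match starts 9 bases and in Psmg4 15 bases after the start of transcription. In Psmb8 it starts 97 bases and in Psmb5 47 bases before it.

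In the 20S core 1 gene passed as higher, Psmb2. All 8 alpha genes and all 7 standard beta genes had log2 fold changes above 0, with medians of 0.20 and 0.35. The spread between OIR libraries was also wider than between nonOIR libraries in the standard beta genes, with a median coefficient of variation of 21.0% against 13.1%, which was not the case in the alpha genes (17.5% against 18.6%). These coefficients pool both lanes. In OIR, Psmb7 stood at 52.5 ± 2.29 CPM in lane 1 and 77.1 ± 3.29 CPM in lane 2, and Psmb6 at 175 ± 16.7 and 304 ± 37.9 CPM (SD, n = 5 and n = 3).

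Psmb2, a structural beta subunit, ran from 145 to 198 CPM in nonOIR (median 168) and from 167 to 285 CPM in OIR (median 201). In 7 of 8 OIR libraries it exceeded the nonOIR median. The mean rose from 171 ± 18.7 to 217 ± 40.1 CPM (SD, n = 8), or by 0.35 ± 0.11 (SE) on the log2 scale (edgeR adjusted p = 0.042). The call was lost without any of OIR replicates 6, 7 and 8 or of nonOIR replicates 1, 2, 3, 4, 5 and 7 (edgeR adjusted p up to 0.0813).

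The standard catalytic subunits did not pass in edgeR's test, although their fold changes were as large as that of Psmb2 or close to it. In the authors' deposited table, by its Wald test, Psmb5 and Psmb6 were higher (adjusted p = 0.0398 and 0.0320) and Psmb7 did not pass (0.108). There Psmb8, Psmb9 and Psmb10 did not pass either (Wald test adjusted p = 0.506, 0.267 and 0.546). Psmb6, the caspase-like subunit, ran from 135 to 203 CPM in nonOIR (median 156) and from 154 to 333 CPM in OIR (median 189). Its 3 highest libraries were OIR replicates 6, 7 and 8, at 318, 261 and 333 CPM, all of lane 2, while the 5 OIR libraries of lane 1 lay between 154 and 199 CPM. Its log2 fold change was 0.49 ± 0.16 (SE) with an edgeR adjusted p of 0.0551, and it passed without any of OIR replicates 1, 2, 3 and 5 or without nonOIR replicate 8 (lowest adjusted p = 0.0282).

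Psmb5, the chymotrypsin-like subunit, ran from 21.5 to 26.4 CPM in nonOIR (median 22.9) and from 23.9 to 46.9 CPM in OIR (median 26.6). Again the OIR libraries of lane 2 were the highest, at 35.4, 31.2 and 46.9 CPM. A log2 fold change of 0.37 ± 0.13 (SE) had an edgeR adjusted p of 0.0816. Of its 50-base stretches 54.1% also occur in other transcripts, chiefly Gm3375, so its count is uncertain.

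Psmb7, the trypsin-like subunit, ran from 40.4 to 55.8 CPM in nonOIR (median 51.6) and from 48.5 to 80.1 CPM in OIR (median 53.8). Its OIR values fell into the lane 1 libraries, between 48.5 and 54.2 CPM, and those of lane 2, between 73.6 and 80.1 CPM. Over all libraries the log2 fold change was 0.28 ± 0.12 (SE), at an edgeR adjusted p of 0.148. The rest of the standard beta genes, the structural Psmb1, Psmb3 and Psmb4, had log2 fold changes of 0.27, 0.21 and 0.38 (edgeR adjusted p = 0.112, 0.348 and 0.0561).

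Among the alpha genes, which form the outer rings and the gate, none passed. The largest log2 fold changes were those of Psma5 (0.38) and Psma7 (0.34), and the smallest that of Psma8 (0.02). Psma7 ran from 149 to 238 CPM in nonOIR and from 188 to 320 CPM in OIR, with all 8 OIR libraries above the nonOIR median (edgeR adjusted p = 0.0851). Psma6, the highest core gene per length, had a log2 fold change of 0.13 (edgeR adjusted p = 0.503). Psma5 shares 49.96% of its 50-base stretches with other transcripts.

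In the 19S cap, 1 of 6 ATPases and 1 of 11 other subunits passed as higher, with median log2 fold changes of 0.19 in each group. Psmd8, a subunit of the cap's lid, passed under every alternative run. It ran from 134 to 198 CPM in nonOIR (median 153) and from 183 to 263 CPM in OIR (median 206), and each OIR library exceeded the nonOIR median. Its mean rose from 159 ± 22.3 to 216 ± 30.5 CPM (SD, n = 8), or by 0.44 ± 0.10 (SE) on the log2 scale (edgeR adjusted p = 0.00848). Over these alternatives the adjusted p was at most 0.0205, and Psmd8 was the single member that passed in both lanes.

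Psmc5, an ATPase of the ring that unfolds substrates, ran from 98.0 to 140.0 CPM in nonOIR (median 133) and from 138 to 182 CPM in OIR (median 159). The groups overlapped only through nonOIR replicate 5 and the lowest OIR library. The mean rose from 126 ± 15.1 to 159 ± 15.1 CPM (SD, n = 8), or by 0.34 ± 0.09 (SE) on the log2 scale (edgeR adjusted p = 0.0172, and 0.171 within lane 1). The other ATPases ranged from 0.03 (Psmc6) to 0.21 (Psmc3) on the log2 scale.

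Of the other cap subunits Psmd2, a scaffold that docks ubiquitin carriers, came nearest to the threshold (edgeR adjusted p = 0.0532). It ran from 113 to 183 CPM in nonOIR (median 142) and from 163 to 212 CPM in OIR (median 183). The lowest nonOIR values were those of the 3 lane 2 libraries and of replicate 4 of lane 1. The nonOIR mean was 116 CPM in lane 2 and 162 CPM in lane 1, while OIR stood at 197 and 178 CPM. The ubiquitin receptor Psmd4, the deubiquitinase Psmd14 and the lid gene Psmd7 had log2 fold changes of 0.08, 0.19 and 0.00 and did not pass, and Psmd6, at -0.02, was the single cap gene below 0.

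The 7 assembly factors, chaperones that build the particle and leave it, were the group with the most mixed signs, 3 above and 4 below 0, at a median log2 fold change of -0.01. Psmg4, which helps to place alpha subunits, was the exception, and it was the single member whose 2 groups did not overlap (1.34% of all tested genes did so with OIR higher and 0.688% with OIR lower). It ran from 11.0 to 15.6 CPM in nonOIR (median 13.0) and from 16.0 to 26.8 CPM in OIR (median 19.2). The mean rose from 13.0 ± 1.54 to 20.04 ± 4.13 CPM (SD, n = 8), 1.54-fold, or by 0.63 ± 0.14 (SE) on the log2 scale (edgeR adjusted p = 0.00712). It passed on leaving out any single library (adjusted p up to 0.0167), and within the lanes alone the adjusted p was 0.0625 and 0.0799. Its partner Psmg3 pointed the other way at -0.20 (edgeR adjusted p = 0.455), and Psmg1, of the other alpha-ring pair, stood at 0.31 (edgeR adjusted p = 0.143) with its partner Psmg2 at -0.03. The cap chaperones Psmd5, Psmd9 and Psmd10 stood at -0.15, 0.21 and -0.01.

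Among the other activators, Psme3, which forms a nuclear activator ring related to PA28, ran from 85.3 to 127 CPM in nonOIR (median 106) and from 112 to 161 CPM in OIR (median 129). All OIR libraries exceeded the nonOIR median, with nonOIR replicates 3, 4 and 7 reaching into their range. Its mean rose from 105 ± 15.5 to 132 ± 18.9 CPM (SD, n = 8), or by 0.33 ± 0.11 (SE) on the log2 scale (edgeR adjusted p = 0.0492), a call lost without any of OIR replicates 3, 6, 7 and 8 or of nonOIR replicates 1, 2, 5, 6 and 8. Psme4, a large activator of the nucleus, stood at 0.07, and Psme2b at -0.22. Psmf1, which encodes the proteasome inhibitor PI31, had a log2 fold change of -0.10 (edgeR adjusted p = 0.715). Psmc3ip had the highest value of all at 0.85 ± 0.41 (SE), with wide spread at its low level (edgeR adjusted p = 0.205).

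Much of the variation of proteasome genes followed the lane code as well as the group. With group as a covariate, 26 of 49 members were higher in lane 2 than in lane 1 in edgeR's quasi-likelihood test, where 11% of all tested genes were, and 3 were lower (Psme2b, Psmd1 and Psmd3), where 13.8% were. The median log2 difference between lanes was 0.25 over the members and 0.03 over all tested genes. Psma8 (0.77, at its low level), Psmb6 (0.58), Psma5 (0.55) and Psma3 (0.50) were among the largest of the 26. Of the immune subunits Psme2 (0.41), Psmb8 (0.40) and Psmb9 (0.39) were higher in lane 2, and Psmb10 (0.09) and Psme1 (-0.05) did not pass. Summed CPM of the members was 4567 ± 318 in nonOIR lane 1, 5068 ± 404 in nonOIR lane 2, 5159 ± 242 in OIR lane 1 and 6168 ± 393 in OIR lane 2 (SD, n = 5 in lane 1 and n = 3 in lane 2).

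The comparison of OIR with nonOIR was therefore repeated with the lane accounted for. With lane as a covariate 17 members were higher and 0 lower (backgrounds 9.68% and 7.59%), among them Psmb5, Psmb6 and Psmb4 of the standard core, and Psmb8, Psmb9 and Psmb10 still did not pass (edgeR adjusted p = 0.23, 0.0734 and 0.525). Within lane 1 alone 2 members were higher, Psmd8 and Psme2, and 0 lower (backgrounds 2.2% and 1.13%). Within lane 2 alone 11 were higher and 0 lower (backgrounds 9.63% and 5.77%). Fold changes were above 0 on the log2 scale in 42 members in lane 1 and in 43 in lane 2, and in 38 in both. The shares of all tested genes above 0 within the lanes were not counted. In lane 1 the median log2 fold change was 0.17 over the members and 0.0004 over all tested genes. In lane 2 these medians were 0.28 and 0.002.

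Fold changes tended to be larger in lane 2, in 37 of 49 members, but no member passed the test of that difference. The share of all tested genes with a larger fold change in lane 2 was not counted. In the model with a group by lane term 0 of 49 members passed edgeR's quasi-likelihood test. Of all tested genes 0.28% passed with a larger and 0.216% with a smaller effect in lane 2. At an unadjusted p under 0.05 there were 7 members, and the share of all tested genes at that cut was not counted. The median difference in this model was 0.08 over the members and -0.01 over all tested genes. The largest differences among subunits were those of Psmd2 (0.62, edgeR adjusted p = 0.096), Psmb5 (0.44, adjusted p = 0.349), Psmb7 (0.44, adjusted p = 0.182) and Psmb6 (0.44, adjusted p = 0.19). The immune subunits stood at -0.22 (Psmb9), -0.08 (Psme2), -0.01 (Psmb8), 0.02 (Psmb10) and 0.03 (Psme1), and other members such as Psma1 (0.00) and Psmd1 (0.02) were as near to 0. The median log2 fold change of the 7 standard beta genes was 0.23 in lane 1 and 0.58 in lane 2, and that of the 5 immune subunits 0.27 and 0.19. The OIR libraries of lane 2 also differed in other markers. Their 6 border macrophage markers (such as Mrc1 and Cd163) summed to 342 to 389 CPM, against 8.69 to 164 CPM in OIR lane 1 and 13.6 to 211 CPM in nonOIR, with 0 of 6 passing between groups. Their dividing cell genes summed to 222 to 340.3 CPM against 57.0 to 241 CPM in OIR lane 1, and their microglial markers to 25544 to 29874 CPM against 32283 to 41144 CPM. Erythrocyte markers summed to 50.3 to 292 CPM in OIR lane 2 and 1.87 to 234 CPM in OIR lane 1, and to 2.63 to 28.6 and 0 to 1.51 CPM in nonOIR. The part of these in the lane 2 values was not tested.

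**Figure D4:**
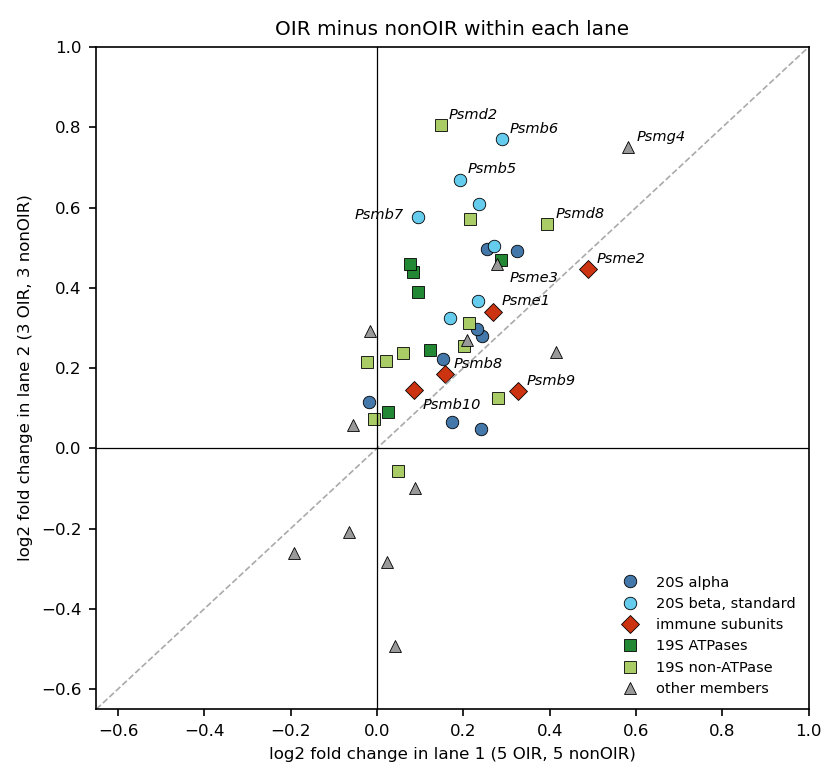
Log2 fold change of OIR over nonOIR within lane 1 (5 against 5 libraries, x axis) and within lane 2 (3 against 3, y axis) for 48 members, coloured by role, without Psmc3ip, which lies outside the axes. Points above the dashed line have the larger value in lane 2. All 7 standard beta genes lie above it, and Psmb9 and Psme2 lie below it.

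Immune and standard catalytic subunits were then set against each other within each library, as the log2 ratio of their counts, which needs no scaling between libraries. The ratio is not per length, so its level does not give a stoichiometry, and only its difference between groups is read. In all 3 pairs the mean ratio was lower in OIR, and in no pair did the difference pass.

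The Psmb8/Psmb5 ratio had a mean of 2.87 ± 0.21 in nonOIR and 2.67 ± 0.15 in OIR (SD, n = 8), a difference of -0.19 (two-sided exact permutation p = 0.0514, adjusted over the 3 ratios 0.141). The Psmb9/Psmb6 ratio had means of -1.46 ± 0.13 and -1.67 ± 0.30 (SD, n = 8), a difference of -0.21 (exact permutation p = 0.0937, adjusted 0.141). The Psmb10/Psmb7 ratio had means of 0.93 ± 0.21 and 0.76 ± 0.28 (SD, n = 8), a difference of -0.17 (exact permutation p = 0.191, adjusted 0.191). The smallest p that 8 against 8 can give is 0.000155. In the first pair 6 of 8 OIR libraries lay below the nonOIR median, in the second 6 and in the third 5, and the groups overlapped in each.

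These differences were found among the lane 2 libraries. There the 3 ratios differed by -0.46, -0.62 and -0.44, with no overlap in any of the 3 pairs, and each reached p = 0.1, the smallest that an exact permutation of 3 against 3 can give. In lane 1 they differed by -0.03, 0.04 and -0.01. Whether the ratios' differences themselves differ between lanes was not tested.

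**Figure D5:**
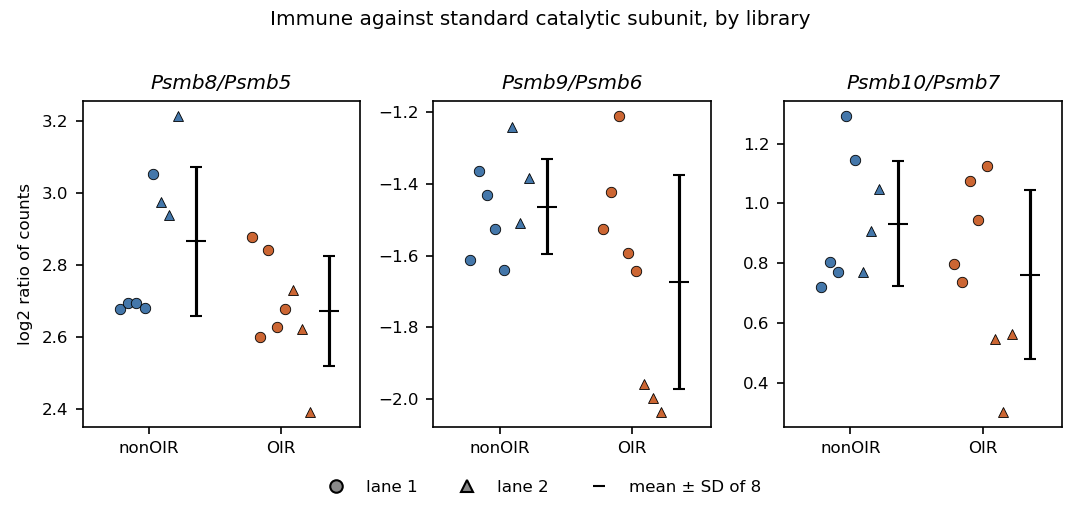
Log2 ratio of the counts of each immune catalytic subunit to its standard partner in every library, with circles for lane 1, triangles for lane 2 and the mean ± SD of 8 libraries. The 3 OIR libraries of lane 2 have the lowest Psmb9/Psmb6 ratios, between -2.04 and -1.96, and the lane 1 libraries of the 2 groups overlap in each pair.

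Genes that work with the proteasome but do not carry its name were read from lists of the pathway. Of 11 tested partners 2 were higher in OIR and 1 was lower (median log2 fold change 0.20). Over all tested genes 6.39% were higher and 4.56% lower, and with so few genes in each list the counts are a description. Pomp, the chaperone that completes the core, rose from 268 ± 25.4 to 326 ± 27.7 CPM (edgeR adjusted p = 0.0189), and Sem1, a small subunit of the cap, from 93.9 ± 18.3 to 131 ± 34.8 CPM (edgeR adjusted p = 0.0448, SD, n = 8). The Pomp call was lost with upper-quartile scaling (adjusted p = 0.0534) and within lane 2 (0.156). The Sem1 call was lost with upper-quartile scaling, with limma-voom and without any of OIR replicates 4, 6, 7 and 8 or of nonOIR replicates 1, 2, 3, 4, 5 and 7 (adjusted p up to 0.0922). Akirin2, which carries assembled proteasomes into the nucleus, fell from 114 ± 12.0 to 77.1 ± 10.8 CPM (SD, n = 8), with no overlap between the groups, which ran from 98.6 to 139 CPM in nonOIR and from 63.3 to 93.1 CPM in OIR. Its log2 fold change was -0.57 (edgeR adjusted p = 0.000916), and it passed as lower within each lane.

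Of the 7 genes that control proteasome transcription, among them Nfe2l1 and Nfe2l2, none passed in either direction in edgeR's quasi-likelihood test (2 were higher and 0 lower at an unadjusted p under 0.05), DESeq2 called 1 higher and limma-voom 0. None of the 9 genes that deliver ubiquitin-tagged proteins, among them Vcp, passed in edgeR's test either (2 higher and 0 lower at an unadjusted p under 0.05), and again DESeq2 called 1 higher and limma-voom 0. Of the class I route 1 of 12 was higher, a count near the share of all tested genes (6.39%). It was the class I heavy chain H2-K1, which rose from 486 ± 65.5 to 627 ± 62.9 CPM (SD, n = 8, edgeR adjusted p = 0.0116). None of the 12 was lower in edgeR's test (1 at an unadjusted p under 0.05) or with limma-voom, and 1 was with DESeq2. For these lists too, the share of all tested genes at the unadjusted cut was not counted. The peptide transporter gene Tap1, which neighbours Psmb9, had a log2 fold change of 0.31 (edgeR adjusted p = 0.0682), and B2m one of -0.12.

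Of 12 genes of interferon control 1 was higher and 3 were lower in OIR, where 6.39% and 4.56% of all tested genes were. Irf7, an interferon-induced transcription factor, rose from 14.2 ± 6.57 to 56.0 ± 43.5 CPM (SD, n = 8, edgeR adjusted p = 0.00229), from 6.04 to 25.2 CPM in nonOIR and 27.7 to 159.7 CPM in OIR, without overlap (adjusted p = 0.0596 within lane 1). Ifngr1, the ligand-binding chain of the interferon gamma receptor, fell from 2061 ± 97.4 to 1463 ± 193 CPM (edgeR adjusted p = 0.00059), also without overlap. Ifnar2, a chain of the type I interferon receptor, fell by 0.29 and Irf2, a transcription factor, by 0.49 on the log2 scale (edgeR adjusted p = 0.029 and 0.0462). The Ifnar2 call was lost with library size alone, with no low-count filter, within each lane, and without any of OIR replicates 3, 4, 6, 7 and 8 or nonOIR replicate 4 (adjusted p up to 0.129). The Irf2 call was lost with library size alone, with no low-count filter, with limma-voom, within lane 2, and without any of OIR replicates 3 to 8 or nonOIR replicates 1 to 5 (adjusted p up to 0.101). Irf1, which is known to act on immune subunit genes, had a log2 fold change of -0.27 and did not pass (edgeR adjusted p = 0.0651).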

How the data were processed

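RNA of 16 libraries of sorted microglia was amplified as cDNA (750 pg of RNA, 12 cycles) and sequenced as single 50-base reads, per the labels' protocols. The kit marks neither strand nor molecules, so counting intervals do not cover amplification. Deposited counts are whole reads for each gene, as the file headers show. FastQC 0.72, STAR 2.6.0b-1, featureCounts 1.6.2, a DESeq2 wrapper 2.11.40.2 and the mm10 build stand in the submitters' processing notes, while which annotation was used is not given there. The authors' normalized signal is the count divided by 1 factor per library. The authors' deposited table adds a log2 fold change, a Wald score and p-values.

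After filterByExpr and TMM scaling, counts were tested with the two-sided robust quasi-likelihood test of edgeR 4.0.16 (R 4.3.3, Benjamini-Hochberg over 12496 genes, threshold 0.05). Alternatives used DESeq2 1.42.0, limma 3.58.1, other scalings and filters, the lane, the replicate number and the omission of libraries. The tests between lanes were added after seeing the data. Ratios used log2 counts with a pseudocount of 0.5 and exact permutation tests. Exon lengths and shared stretches come from GENCODE M21 on the same build. Values are printed for the immune subunits, their partners, up to 3 calls in each direction per role and list, and the ends of each role by level, and other members were named after their values were seen. Members and lists were chosen with earlier results of these data known. On simulated counts with 8 against 8 libraries the test found 45 of 50 genes changed 1.5-fold and 50 of 50 changed 2-fold. Genes with a smaller change and unchanged genes were simulated too, and how many of them were called is not given here. The simulated counts were drawn with a smaller biological coefficient of variation than the common value over all tested genes of the data, and without a lane effect. Most members changed less than 1.5-fold, so these figures do not give the power of the test for them. Depth (13591651 to 30001463 counts) and a biological coefficient of variation of 40.3%, the common value over all tested genes, limit the precision. The members' own median coefficient of variation between libraries was 15.6% in nonOIR and 14.3% in OIR.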

Additional observations from a re-analysis of the deposited data

Results flagged for a closer look

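A search for single libraries far from the rest of their group covered 32 groups of 8 values, and chance gives about 1 in 20. It marked 2 groups. Psme1 in OIR had 1 high library, replicate 3, at 227 CPM, where the next was 187 CPM. Psmb7 in nonOIR had 1 low library, replicate 4, at 40.4 CPM, where the next was 49.9 CPM.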

How the results depend on the processing

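The count of 7 members higher in OIR depended on the setting, while 0 were lower in every alternative run. It was 12 with library size alone (8.16% of all genes tested), 3 with upper-quartile scaling (5.4%), 4 with no low-count filter (2.13%), 13 with DESeq2 (8.7%), 17 with lane as a covariate, 2 in lane 1 only and 11 in lane 2 only. Leaving out 1 library gave 3 to 10 members, namely 3 without OIR replicate 6 or nonOIR replicate 2 and 4 without OIR replicate 8 or nonOIR replicate 3, 4 or 7. Without both OIR replicate 1 and nonOIR replicate 8 it was 8. Psmg4, Psmd8 and Psmc5 passed without any single library. Over all genes 1368 changed, 2159 with lane as a covariate, 417 in lane 1 only and 935 to 1556 with 1 library left out, and 58.3% of calls were higher in OIR with TMM, 73.7% with library size alone and 51.1% with upper-quartile scaling. The Psmb9/Psmb6 ratio difference turned to 0.0354 in lane 1 only, and leaving out single libraries kept all 3 ratio differences below 0. With the replicate number as a block 14 members were higher (7.72% of all genes tested) and 1679 genes changed, but same-numbered libraries correlated at only -0.02 to 0.20, not every library correlated best with its own number, and the numbers were not taken as pairs. The causes of these shifts were not tested.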
